A study of Mus musculus with 17 samples.

Results

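The imprinted growth network genes are genes transcribed mainly from the maternal or the paternal copy that act on the growth of the embryo, many of which fall in activity after birth. Their 10 members here were *H19*, *Igf2*, *Dlk1*, *Meg3*, *Peg3*, *Mest*, *Cdkn1c*, *Grb10*, *Plagl1* and *Ndn*, found by symbol among the 31053 genes of the count table, with 1 row each. They were followed in 17 bulk RNA-seq libraries of cardiac fibroblasts (CFs) sorted from hearts after myocardial infarction (MI). *H19* was chosen by its late rise in these libraries, so its levels are described without a test, and the question put to the others was whether they rose with it.

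All libraries came from C57BL/6 mice of 8 to 10 weeks that carried the Collagen1a1-GFP reporter and had an infarction, made by permanent ligation of the left anterior descending artery, and they differed by the day post-infarction (dpi). The days 1, 2, 4 and 6 dpi had 3 libraries each, 3 dpi had 4, and 5 dpi had 1. GFP is driven by a collagen promoter, and GFP+ cells without the surface proteins CD31 and CD45 were sorted. The paper also describes an enrichment for fibroblasts with antibody beads before sorting. A library therefore need not hold every cell in which that promoter was active, and the sort did not divide cells by their state. Uninjured hearts were not analysed here, and all values are therefore relative between days after MI. The paper speaks of biological replicates, and the labels do not say whether these came from separate animals. The p-values are set against the spread between these libraries.

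Parent-of-origin expression is set by DNA methylation laid down in the germ line at control regions, each of which governs a cluster of neighbouring genes. *H19*, a long non-coding RNA of the maternal copy, and *Igf2*, a growth factor of the paternal copy, share enhancers and a control region, and *Meg3* (maternal, non-coding) and *Dlk1* (paternal, a membrane protein that holds back differentiation) form a similar pair. Among the others, *Mest*, *Peg3*, *Ndn* and *Plagl1* are transcribed from the paternal copy, and *Cdkn1c* and, in most tissues outside the nervous system, *Grb10* from the maternal copy. *Plagl1* encodes a zinc finger factor known to act on other genes of the network, whereas *Cdkn1c* encodes a cyclin-dependent kinase inhibitor and *Grb10* an adaptor that dampens insulin and IGF receptor signalling.

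*H19* and *Mest* each also carry a microRNA on their own strand. miR-675 is cut from *H19* (chr7:142575529-142578143, minus strand, GRCm38), and miR-335 lies within *Mest* (chr6:30723547-30748465, plus strand). The mature sequences are from RefSeq on GRCm38.p6, with the seed (bases 2 to 8) in capitals. They are shown because they are the products that the members with the largest rise carry, and microRNAs themselves are not read by a poly-A library.
miR-675-5p: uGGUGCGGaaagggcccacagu
miR-675-3p: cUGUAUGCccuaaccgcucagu
miR-335-5p: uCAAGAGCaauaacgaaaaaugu
miR-335-3p: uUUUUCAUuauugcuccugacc
The 4 seeds differ from each other.

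Total counts ranged from 8021815 to 22029938 per library, and 3 counts correspond to between 0.136 and 0.374 CPM, counts scaled to a common library size (the CPM of RNA-seq). Levels are CPM scaled by TMM factors, which correct for differences in composition, and single genes are compared over days. The libraries were divided by a sex-linked pattern that moved with the day. *Xist*, which is transcribed from the inactive X chromosome, made up 0.343% or less of *Xist* and Y-linked counts at 3 and 5 dpi, 2.46% to 4.45% at 2 dpi and at least 99.6% in every library of 4 and 6 dpi. At 1 dpi its share was 95.2%, 24.1% and 4.96%, so those libraries held both kinds of counts. At 3 dpi, replicate 2 stood apart, with a mean correlation of 0.919 with the other libraries of its day against 0.946 to 0.951 for the others. The fibroblast gene list was high on every day, with a summed level between 12390 and 38170 CPM.

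*H19* rose from day to day. At 1 dpi its level was 2.41, 4.16 and 4.59 CPM, and at 2 dpi it was 5.03, 13.5 and 12.9 CPM. At 3 dpi it was 23.4, 119.5, 26.3 and 17.7 CPM, with the high value in replicate 2. At 4 dpi it was 95.1, 123 and 157 CPM, at 5 dpi 133 CPM, and at 6 dpi 170, 155 and 142 CPM. The libraries of 2 and of 3 dpi lay above all those of the day before, whereas replicate 2 of 3 dpi lay among the libraries of 4 dpi and the 5 dpi library lay within the range of 4 dpi. The mean ± SD went from 3.72 ± 1.16 CPM (n = 3) at 1 dpi to 10.5 ± 4.73 (n = 3), 46.7 ± 48.7 (n = 4), 125 ± 30.8 (n = 3) and, at 6 dpi, 156 ± 13.7 (n = 3). On the log2 scale, the mean of the day means of 4 to 6 dpi lay 3.67 above that of 1 to 3 dpi, a ratio of 12.8, and the SD between libraries of a day was 0.77. Without replicate 2 of 3 dpi the difference was 3.87, and without the libraries of 1 dpi, which held both *Xist* and Y-linked counts, it was 2.91. In bulk libraries, a change in the share of cells of a type and a change in RNA per cell cannot be told apart.

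**Figure D1:**
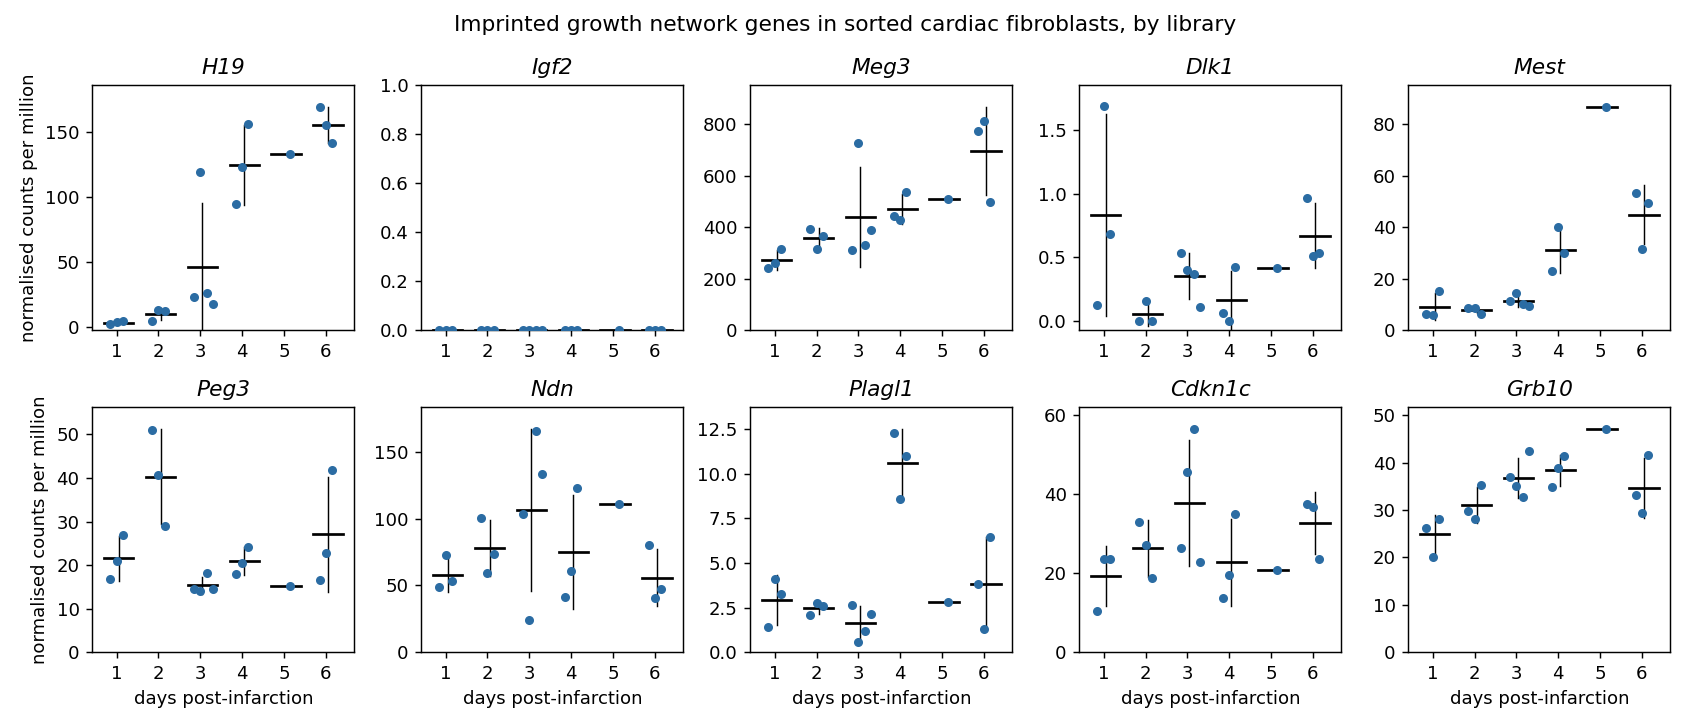
Level of each of the 10 genes in every library (points, TMM-scaled CPM, linear axes of different range) against the day post-infarction, with the mean of each day as a horizontal line and the SD as a vertical line where a day has more than 1 library. *H19* and *Mest* are higher at 4 to 6 dpi, *Plagl1* is highest at 4 dpi, *Peg3* at 2 dpi, and *Igf2* is at 0 in all 17 libraries.

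The value at 1 dpi was lowest in the library with the *Xist* pattern (2.41 CPM), and the 5 dpi library, which held Y-linked counts and no *Xist* count, had 133 CPM. Among libraries in which Y-linked counts outnumbered *Xist*, the 9 of 1 to 3 dpi ranged from 4.16 to 119.5 CPM. Marker lists of other cells changed over the same days, each with its own course. The summed level of 10 mural cell genes, which include the contractile genes *Acta2* and *Tagln* that activated fibroblasts also use, was 313 to 520 CPM at 1 and 2 dpi, 896 to 2121 at 3 dpi, 1515 to 1842 at 4 dpi, 2513 at 5 dpi and 1021 to 1314 at 6 dpi, the day on which the mean of *H19* was highest. In replicate 2 of 3 dpi it was 2121 CPM, the highest of its day. Most of this sum came from *Acta2* and *Tagln*, with 119919 and 93344 counts over all libraries, against 10031 for *Notch3*, the next in the list. Cardiomyocyte genes summed to 20.2 to 35.1 CPM at 1 dpi, 12.1 to 24.1 at 2 dpi, 8.77 to 14.6 at 3 dpi, 44.9 to 78.4 at 4 dpi, 19.1 at 5 dpi and 98.6 to 214 at 6 dpi, and their 10 genes all had counts. Satellite cells of skeletal muscle also use *H19*, and the 6 genes of their list summed to 15.4 to 24.8 CPM at 1 and 2 dpi, 18.3 to 65.9 at 3 dpi, with the highest value in replicate 2, and 39 to 87.1 at 4 to 6 dpi. Nearly all of this came from *Des*, the muscle filament gene desmin, which mural cells and cardiomyocytes use too and which had 8804 counts over all 17 libraries, against 33 for *Myog* and 9 for *Cdh15*. The defining genes *Pax7*, *Myf5* and *Myod1* had 2, 0 and 1. The part of these lists in the rise of *H19* was not tested.

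The level of *Igf2*, the partner of *H19* in its cluster, could not be read from the table. *Igf2* (chr7:142650766-142666816, minus strand) lies 72.6 kb from *H19* and was listed at 0 in all 17 libraries. The annotation places a read-through gene, *Gm49394* (chr7:142650769-142669942), on the same strand, and its row was also at 0 in every library. Of the 5723 exonic bases of *Igf2*, 3596 belonged to *Gm49394* as well, including 3284 of the 3287 bases of the last exon, where a 3′ protocol places its reads.

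**Figure D2:**
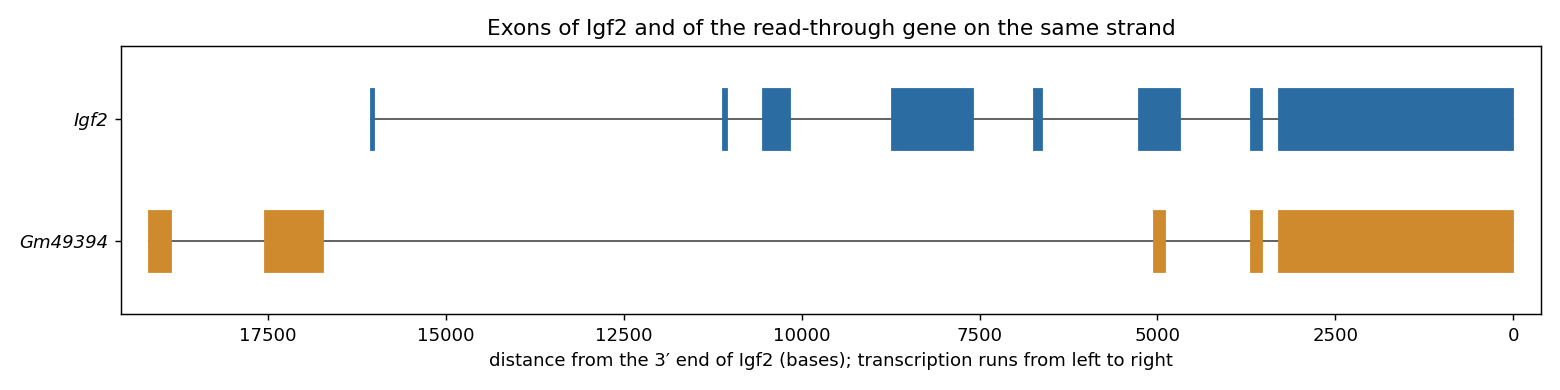
Exons of *Igf2* and *Gm49394* (boxes, GENCODE vM21) against the distance from the 3′ end of *Igf2* in bases, drawn to scale with transcription from left to right. The last exon, 3287 bases in *Igf2*, is shared but for its final 3 bases.

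Rows of other genes with such an end were often at 0 as well. Among protein-coding genes whose last 500 exonic bases were wholly shared with another gene on the same strand, 196 of 279 (70.2%) were at 0 in all libraries. *Igf2*, with 99.4% of these bases shared, was not in this class, whereas *Gm49394* was. Both genes of an overlap could be counted in it. Of the genes whose end was shared on neither strand, 4243 of 19570 (21.7%) were at 0. Whether reads from the shared exon of *Igf2* were left out of both rows was not tested. *Igf2os*, the transcript antisense to *Igf2*, had 22 counts over all libraries, and *Ins2*, the insulin gene beside it, had 10.

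The other members were tested by edgeR's quasi-likelihood F-test, with day as a factor and p-values adjusted by the Benjamini-Hochberg method over all 14030 genes that passed a filter on low counts, and *Igf2* failed that filter. Over the whole time course, 4 of the 8 genes tested beside *H19* passed an adjusted p of 0.05, against 15.0% of all genes. These were *Mest* (adjusted p = 1.5e-05), *Plagl1* (0.014), *Peg3* (0.022) and *Meg3* (0.048). The call of *Meg3* was lost in 14 of 25 other fits, 13 of which left out a single library. In the comparison of the mean of 4 to 6 dpi with that of 1 to 3 dpi (the late comparison), 2 of the 8, *Mest* and *Meg3*, rose and none fell, against 7.55% of all genes that passed in either direction and 5.09% that passed as higher. The median log2 fold change of the 8 was 0.39, and that of all genes tested was -0.02. The remaining 6 had log2 fold changes between -0.21 and 1.08.

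**Figure D3:**
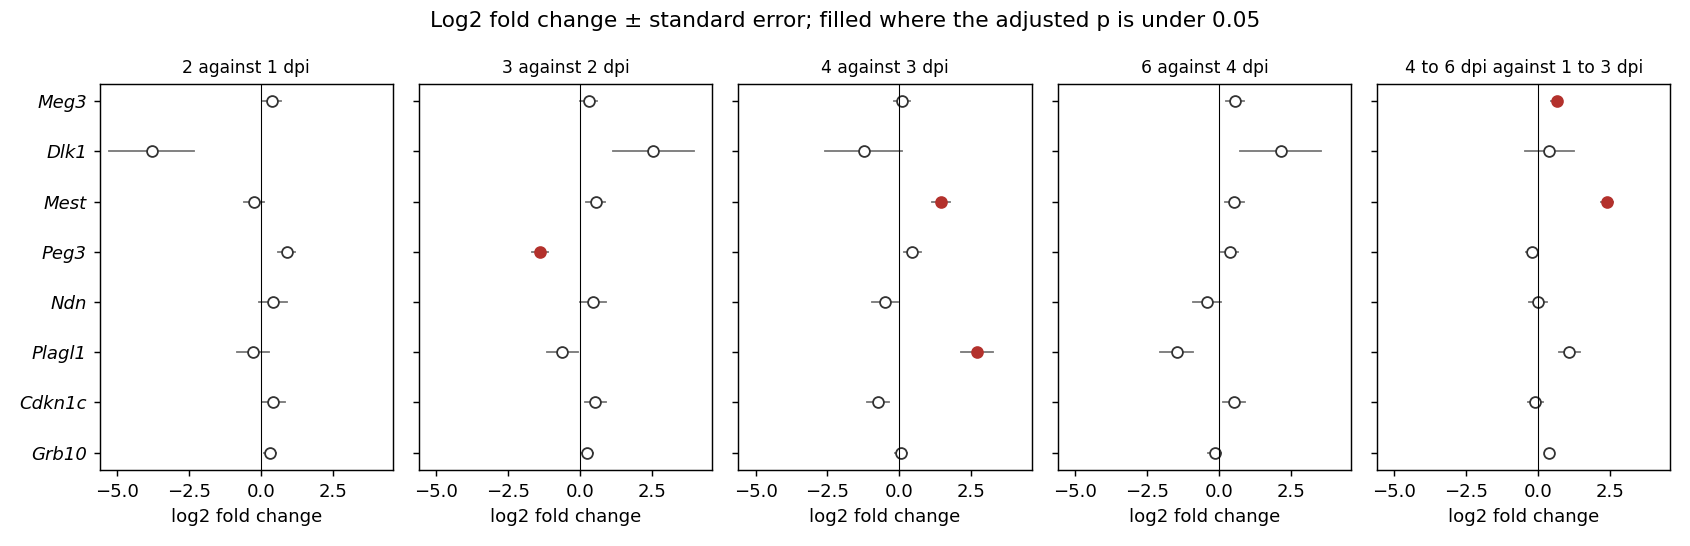
Log2 fold change (points) ± standard error (lines) of the 8 genes tested beside *H19* in the 4 comparisons of days and in that of 4 to 6 dpi with 1 to 3 dpi, with filled points where the adjusted p was under 0.05. *Mest* is filled at 4 against 3 dpi and in the late comparison, *Plagl1* at 4 against 3 dpi, *Peg3* at 3 against 2 dpi and *Meg3* in the late comparison.

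*Mest*, which encodes a hydrolase-like protein of the endoplasmic reticulum and is used as a marker of growing mesoderm, had the highest late fold change of the 8. At 1 dpi its level was 6.33, 5.89 and 15.3 CPM, and at 2 dpi it was 8.62, 8.45 and 6.46 CPM. At 3 dpi it was 11.2, 14.6, 10.2 and 9.57 CPM. At 4 dpi it was 22.8, 40.1 and 30.0 CPM, at 5 dpi 86.5 CPM and at 6 dpi 53.2, 31.7 and 49.4 CPM. All 7 libraries of 4 to 6 dpi lay above all 10 libraries of 1 to 3 dpi. The late libraries were higher by 2.39 ± 0.21 on the log2 scale (log2 fold change ± SE), 5.25-fold, with an adjusted p of 4.6e-07. *Mest* passed in each of the 27 other fits run, with log2 fold changes between 1.99 and 2.92.

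Between consecutive days, the rise of *Mest* passed from 3 to 4 dpi. In that comparison 2 of the 8 genes, *Mest* and *Plagl1*, passed and both were higher at 4 dpi, against 2.71% of all genes. *Mest* rose by 1.44 ± 0.31 on the log2 scale (adjusted p = 0.017), from 11.4 ± 2.23 CPM (n = 4) to 31.0 ± 8.69 CPM (n = 3), with no overlap. The call was lost, with adjusted p-values of 0.05 to 0.11, without replicate 1 or 4 of 3 dpi or replicate 2 of 4 dpi, and in the fit with a replicate block it was 0.063. The sex-linked pattern and the day cannot be told apart between 3 and 4 dpi. Where Y-linked counts outnumbered *Xist*, *Mest* was at 86.5 CPM at 5 dpi against 5.89 to 15.3 CPM in the 9 libraries of 1 to 3 dpi. Where *Xist* prevailed, it was at 22.8 to 53.2 CPM in the 6 libraries of 4 and 6 dpi against 6.33 CPM at 1 dpi. The mural sum given with *H19* was also highest in the 5 dpi library, and its part in the rise of *Mest* was not tested. The cardiomyocyte sum in that library, 19.1 CPM, lay within its range at 1 to 3 dpi, 8.77 to 35.1 CPM. That sum was 44.9 to 78.4 CPM at 4 dpi and 98.6 to 214 CPM at 6 dpi, above all early libraries. Its part in the rise of *Mest* was not tested either. Of 25 proliferation genes, 16 rose and 1 fell in the late comparison, with a median log2 fold change of 1.14. Of all genes, 5.09% passed as higher there. From 3 to 4 dpi, 0 of the 25 passed as higher and 1 as lower, with a median of -0.53. Their summed level was 165 to 321 CPM at 1 dpi, 289 to 431 at 2 dpi and 991 to 1237 at 3 dpi. It was 459 to 810 CPM at 4 dpi, 926 at 5 dpi and 250 to 424 at 6 dpi. The part of these genes in the rise of *Mest* was not tested.

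**Figure D4:**
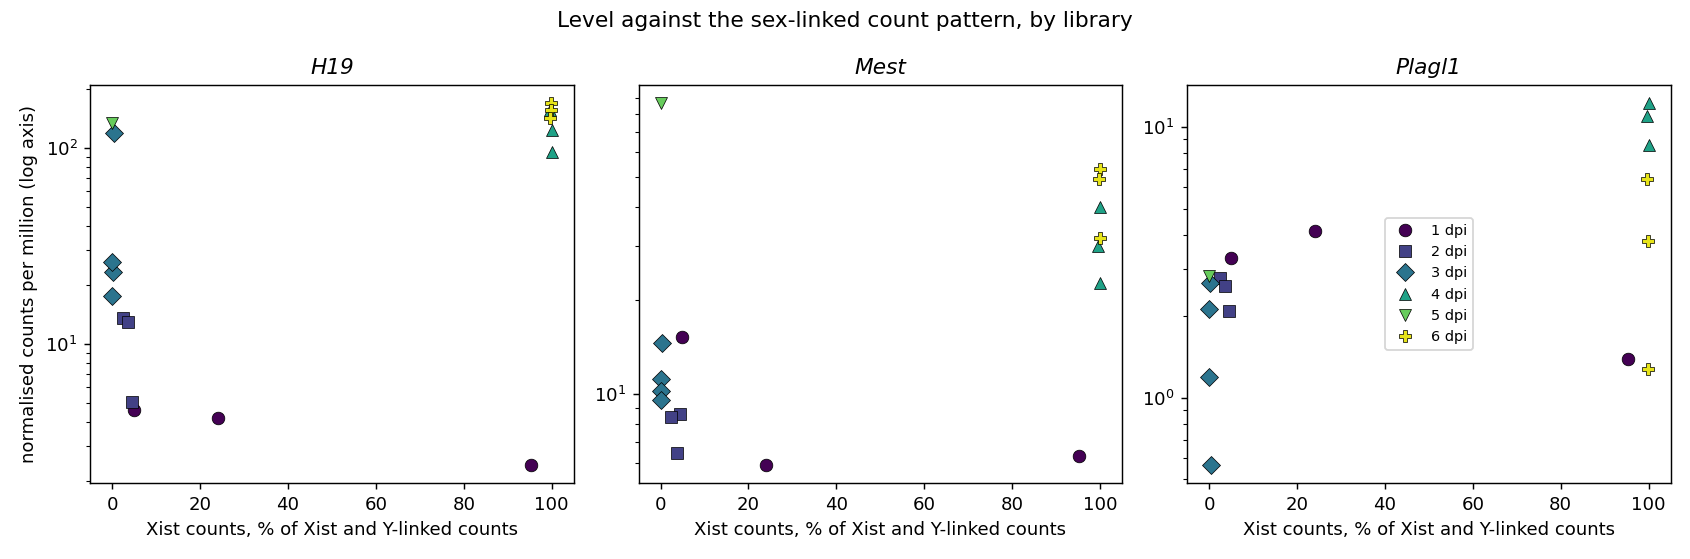
Level of *H19*, *Mest* and *Plagl1* in every library (log axis, TMM-scaled CPM) against the share of *Xist* among *Xist* and Y-linked counts in percent, with a symbol for each day. The 5 dpi library, at a share of 0%, has 133 CPM of *H19* and 86.5 CPM of *Mest* but 2.81 CPM of *Plagl1*.

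The 3′ end of *Mest* is wholly covered on the opposite strand by *Copg2*, which encodes a coat protein of Golgi vesicles, and the strand setting of the counting is not given in the sources used here. Reads of these overlapping genes could therefore not be told apart if strand was not used. Of 428 protein-coding genes whose end was wholly covered on the opposite strand only, 31 (7.24%) were at 0 in all libraries. Among genes whose end was shared on neither strand it was 21.7%. Whether strand was used was not tested. *Copg2* ranged from 8.16 to 12.2 CPM at 1 to 3 dpi and from 11.4 to 18.3 CPM at 4 to 6 dpi, and its log2 fold change of 0.44 ± 0.16 did not pass (adjusted p = 0.12).

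*Meg3* was higher late than early by a smaller amount. At 1 dpi its level was 242, 260 and 316 CPM, and at 2 dpi it was 394, 316 and 365 CPM. At 3 dpi it was 312, 727, 331 and 390.2 CPM, with the highest value again in replicate 2. At 4 dpi it was 445, 428 and 538 CPM, at 5 dpi 508 CPM and at 6 dpi 773, 813 and 499 CPM. Only 2 of the 7 late libraries lay above every early one, and replicate 2 of 3 dpi lay above 5 of the 7. The log2 fold change of 4 to 6 dpi against 1 to 3 dpi was 0.65 ± 0.19 (1.57-fold, adjusted p = 0.046). This call held by a narrow margin and was lost in 17 of 27 other fits. Leaving out single libraries of the days with replicates gave adjusted p-values from 0.0014, without replicate 2 of 3 dpi, to 0.085, and 14 of these 16 fits did not pass. With a replicate block it was 0.082, and in a fit of early against late libraries it was 0.074 (0.65 on the log2 scale), and with the *Xist* share added as a covariate 0.32 (0.89 on the log2 scale). In the comparisons of single days *Meg3* did not pass. The summed level of 10 endothelial genes was 616 CPM in replicate 2 of 3 dpi and 513 and 514 CPM in replicates 1 and 2 of 6 dpi. It was 260 to 397 CPM in the other libraries. In this list *Eng* had most of the counts, 76628 over all libraries, against 7161 for *Tek* and 1047 for *Pecam1*. *Pecam1* alone was at 2.17 CPM in replicate 2 of 3 dpi, within a range of 0.851 to 8.025 CPM on that day. Its highest value, 12.8 CPM, was in replicate 2 of 2 dpi, where the sum was 314 CPM. At 6 dpi *Pecam1* was higher in replicates 1 and 2 than in replicate 3, as the sum was. The part of this list in the level of *Meg3* was not tested. The 3′ end of *Meg3* (chr12:109541001-109571726, plus strand) is covered over 85.2% of its last 500 bases by an antisense transcript, *Gm26906*, which had 83 counts in all.

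*Dlk1*, 77.7 kb from *Meg3* in the same cluster (chr12:109452823-109463336, plus strand), was close to the limit of detection. It had 113 counts over all libraries and no more than 41 in any. Its level lay between 0.127 and 1.69 CPM at 1 dpi, 0 and 0.159 at 2 dpi, 0.106 and 0.532 at 3 dpi, 0 and 0.427 at 4 dpi and 0.511 and 0.968 at 6 dpi, and it was 0.416 CPM at 5 dpi. At 2, 3 and 4 dpi no library held more than 6 counts, and *Dlk1* passed the filter through only 3 libraries. No difference passed the test in any comparison. Its log2 fold change in the late comparison was 0.39 ± 0.85 (adjusted p = 0.85), and the direction turned in 3 other fits.

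Other genes of this cluster were read from a list that was chosen with earlier results of these data known. *Mirg*, a non-coding RNA that lies downstream of *Meg3* (chr12:109729764-109749460, plus strand) and hosts a group of microRNAs, ranged from 4.89 to 19.1 CPM at 1 to 3 dpi. It was at 27.1, 24.2 and 27.4 CPM at 4 dpi, at 20.1 CPM at 5 dpi and at 28.8, 23.6 and 22.5 CPM at 6 dpi. All 7 late libraries of *Mirg* lay above all 10 early ones, and its log2 fold change was 1.11 ± 0.22 (adjusted p = 0.003). It passed at 4 against 3 dpi too, by 1.67 ± 0.33 (adjusted p = 0.0093). The late call was lost in 1 of 27 other fits, that with the *Xist* share (1.27 on the log2 scale, adjusted p = 0.14). *Rtl1*, the paternal retrotransposon-derived gene of the cluster, had 6 counts in all, and *Rian* was not analysed here.

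*Plagl1* (chr10:13060504-13131694, plus strand) was high on a single day. Its level was 1.39, 4.12 and 3.27 CPM at 1 dpi, 2.09, 2.76 and 2.6 CPM at 2 dpi and 2.66, 0.563, 1.19 and 2.13 CPM at 3 dpi. At 4 dpi it was 12.3, 8.60 and 11 CPM, and it was 2.81 CPM at 5 dpi and 3.81, 1.28 and 6.45 CPM at 6 dpi. The 3 libraries of 4 dpi lay above the other 14. *Plagl1* rose by 2.71 ± 0.55 on the log2 scale from 3 to 4 dpi, 6.52-fold (adjusted p = 0.011), from 1.63 ± 0.94 CPM (n = 4) to 10.6 ± 1.87 CPM (n = 3). From 4 to 6 dpi its log2 fold change was -1.46 ± 0.57 (adjusted p = 0.17). The late comparison, which averages 4, 5 and 6 dpi, gave 1.08 ± 0.37 (adjusted p = 0.084), and it passed in 4 of 26 other fits, with 0.0098 without the 5 dpi library. All 3 libraries of 4 dpi had the *Xist* pattern, as did those of 6 dpi, whereas the libraries of 3 and 5 dpi had the Y-linked pattern. The counts were low, with 103 to 189 at 4 dpi and 7 to 30 at 3 dpi.

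*Peg3* (chr7:6703892-6730431, minus strand), which encodes a large zinc finger protein, was highest at 2 dpi. Its level was 16.7, 20.9 and 27.0 CPM at 1 dpi and 50.9, 40.8 and 29.1 CPM at 2 dpi. At 3 dpi it was 14.5, 14.0, 18.3 and 14.5 CPM, and at 4 dpi it was 18.0, 20.6 and 24.2 CPM. It was 15.3 CPM at 5 dpi and 16.6, 22.8 and 41.9 CPM at 6 dpi. The libraries of 2 dpi lay above all those of 1 and 3 dpi, and replicate 3 of 6 dpi lay among them. From 2 to 3 dpi, 1 of the 8 genes passed, against 2.94% of all genes, and this was *Peg3*, which fell by 1.39 ± 0.29 on the log2 scale (adjusted p = 0.013). The call was lost without replicate 1 (adjusted p = 0.063) or replicate 2 (0.07) of 2 dpi, and held with a replicate block (0.035). The libraries of 2 and 3 dpi shared the Y-linked pattern. The summed level of 11 leukocyte genes moved between them, from 8.71 to 21.7 CPM at 2 dpi to 46.8 to 225 CPM at 3 dpi, and its part in the fall of *Peg3* was not tested. In the late comparison the log2 fold change of *Peg3* was -0.21 ± 0.21 (adjusted p = 0.62).

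*Ndn* (chr7:62346569-62350262, plus strand), which encodes a growth suppressor, varied widely within days. Its level ranged from 48.6 to 72.4 CPM at 1 dpi, 59.1 to 100.7 at 2 dpi, 24.1 to 165 at 3 dpi, 41.3 to 123 at 4 dpi and 40.4 to 80.0 at 6 dpi, and was 111 CPM at 5 dpi. The lowest of all 17 values was that of replicate 2 of 3 dpi, the library in which *H19* and *Meg3* were highest for their day. The late comparison gave a log2 fold change of -0.02 ± 0.32 (adjusted p = 0.99). Over the time course *Ndn* did not pass (adjusted p = 0.47). It did so in the fit with every gene of at least 1 count (0.019) and in that without replicate 2 of 3 dpi (0.044).

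*Cdkn1c* and *Grb10*, both brakes on growth, did not pass in any comparison of the fit reported here. Over the time course *Cdkn1c* passed in 1 other fit, that with every gene of at least 1 count (adjusted p = 0.039). *Cdkn1c* (chr7:143458339-143461050, minus strand) ranged from 10.5 to 23.6 CPM at 1 dpi, 18.8 to 33.1 at 2 dpi, 23.0 to 56.5 at 3 dpi, 13.8 to 35.1 at 4 dpi and 23.7 to 37.6 at 6 dpi, and was 20.9 CPM at 5 dpi. Its log2 fold change in the late comparison was -0.11 ± 0.26 (adjusted p = 0.87). *Grb10* (chr11:11930508-12038683, minus strand) ranged from 20.2 to 28.1 CPM at 1 dpi, 28.0 to 35.3 at 2 dpi, 32.7 to 42.4 at 3 dpi, 34.9 to 41.3 at 4 dpi and 29.3 to 41.7 at 6 dpi, and was highest at 5 dpi with 47.0 CPM. It was higher late by 0.38 ± 0.14 (adjusted p = 0.12), within a range of 0.26 to 0.57 over the other fits. Neighbouring days in the order of the means of *Cdkn1c* overlapped throughout, and those of *Grb10* did so except for the 5 dpi library.

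The remaining steps between days gave no call among the members. From 1 to 2 dpi, edgeR called 0 of the 8 (0.178% of all genes), with 2 at an unadjusted p under 0.05, and DESeq2 called 0 with the same number. From 4 to 6 dpi, edgeR called 0 of the 8 (0.513% of all genes), with 1 at an unadjusted p under 0.05, and DESeq2 called 0 with 2.

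The sequences at the starts of the 4 genes that passed over the time course are shown for reading beside their levels. Windows of 300 bases, from 250 before to 50 after the start, were taken from RefSeq (GRCm38.p6) and matched 8 of the 10 members. *H19* and *Cdkn1c* had no entry. Pairs of C followed by G, at which DNA is methylated, are in capitals for *Mest*, *Meg3* and *Plagl1*.
Mest, chr6:30737800-30738099, plus strand: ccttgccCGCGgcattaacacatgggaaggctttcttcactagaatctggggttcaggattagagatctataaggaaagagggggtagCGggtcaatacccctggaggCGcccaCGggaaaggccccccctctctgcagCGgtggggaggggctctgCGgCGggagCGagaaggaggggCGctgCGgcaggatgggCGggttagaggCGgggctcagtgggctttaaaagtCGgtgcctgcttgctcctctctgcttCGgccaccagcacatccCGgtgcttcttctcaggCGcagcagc
Meg3, chr12:109540746-109541045, plus strand: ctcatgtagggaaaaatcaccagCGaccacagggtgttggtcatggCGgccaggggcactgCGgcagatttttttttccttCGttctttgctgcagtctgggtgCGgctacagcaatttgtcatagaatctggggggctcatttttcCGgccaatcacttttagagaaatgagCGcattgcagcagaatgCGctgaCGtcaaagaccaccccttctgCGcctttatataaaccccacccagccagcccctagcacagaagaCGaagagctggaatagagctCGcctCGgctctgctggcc
Plagl1, chr10:13090582-13090881, plus strand: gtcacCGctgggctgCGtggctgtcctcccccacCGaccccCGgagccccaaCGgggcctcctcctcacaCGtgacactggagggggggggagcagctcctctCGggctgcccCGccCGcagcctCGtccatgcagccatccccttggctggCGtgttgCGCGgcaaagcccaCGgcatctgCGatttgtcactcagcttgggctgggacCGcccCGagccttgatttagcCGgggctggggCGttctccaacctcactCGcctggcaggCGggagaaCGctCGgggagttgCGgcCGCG
*Mest* held 17 such pairs in this window, *Meg3* 13 and *Plagl1* 26, and 31.4%, 37.9% and 16.9% of all 32851 windows held at least as many. *Peg3*, with a single window, held 13, as many as *Meg3*. Other starts listed for these genes held fewer or as many: *Mest* held 8 at chr6:30733256-30733555 and 17 at a start 3 bases from that shown, and *Meg3* held 1 at chr12:109545148-109545447. The median window held 7.

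The letters GGGGCCCC, the core of the sequence that the *Plagl1* protein is known to bind, read the same on both strands and were found in 1 of the 15 windows of the members, that of *Peg3*, against 1.08% of all windows. They are in capitals here.
Peg3, chr7:6730370-6730669, minus strand: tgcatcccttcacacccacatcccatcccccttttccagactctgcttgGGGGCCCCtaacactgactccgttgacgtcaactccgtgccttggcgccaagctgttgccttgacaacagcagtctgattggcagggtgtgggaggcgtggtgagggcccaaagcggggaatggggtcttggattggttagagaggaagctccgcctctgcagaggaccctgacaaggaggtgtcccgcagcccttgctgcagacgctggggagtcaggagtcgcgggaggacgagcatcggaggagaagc
*Peg3* was highest at 2 dpi, when *Plagl1* was at 2.09 to 2.76 CPM, and it was at 18.0 to 24.2 CPM at 4 dpi, the day on which *Plagl1* was highest. A match of letters is a description, and binding was not measured.

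The genes whose pattern over the 17 libraries was most like that of *H19* were ranked by correlation. Among 8919 genes with a mean of at least 100 counts, the 8 with the highest Pearson correlation of log2 CPM with *H19* were *Csrp2* (0.95), *Col5a1* (0.94), *Cthrc1* (0.94), *Col1a1* (0.94), *Sfrp2* (0.94), *Tbxa2r* (0.93), *Oas1a* (0.93) and *Palld* (0.93). *Col5a1* and *Col1a1* encode fibrillar collagens, *Cthrc1* a secreted collagen triple helix protein, and *Csrp2* and *Palld* proteins of the actin cytoskeleton. *Sfrp2* encodes a secreted modulator of Wnt signalling, *Tbxa2r* the thromboxane receptor and *Oas1a* an interferon-induced enzyme. *Meg3* ranked at 67 and *Mest* at 73 (0.84 each), and *Grb10* at 449 (0.66). The other values were 0.32 for *Cdkn1c*, -0.14 for *Ndn* and -0.23 for *Peg3*. Of the lower genes, which were not ranked, *Plagl1* had 0.28 and *Dlk1* 0.13. When each library was expressed as its deviation from the mean of its day, over the 16 libraries of days with replicates, the correlation with *H19* was 0.66 for *Meg3*, 0.43 for *Dlk1*, 0.40 for *Cdkn1c*, 0.36 for *Mest*, -0.12 for *Grb10*, -0.13 for *Peg3*, -0.32 for *Plagl1* and -0.61 for *Ndn*. These are descriptions over libraries that share days, depth and sorting, and carry no p.

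Among 61 further imprinted genes, 57 had a row in the table, 40 were tested and 1, *Mirg*, passed in the late comparison, against the 7.55% of all genes. The median log2 fold change of the 40 was 0.08. Over the whole time course 8 of the 40 passed, against the 15.0% of all genes. Besides *Mirg*, the neighbours named here did not pass in the late comparison where they could be tested. *Kcnq1ot1*, the non-coding RNA of the cluster of *Cdkn1c*, had a log2 fold change of -0.50 ± 0.21 (adjusted p = 0.16), and *Phlda2*, a placental growth gene there, had 46 counts in all. *Snrpn*, in the cluster of *Ndn*, had 0.57 ± 0.25 (adjusted p = 0.19), but it passed over the time course (adjusted p = 0.0016) and, at the threshold, from 4 to 6 dpi, where it rose by 1.73 ± 0.39 (adjusted p = 0.05), from 3.38 to 4.59 CPM to 8.91 to 15.4 CPM. It shares exons with *Snurf*, whose row was at 0 throughout, as was that of *Magel2*. *Ddc*, beside *Grb10*, had 0.17 ± 0.80 (adjusted p = 0.94). *Usp29* and *Zim1*, beside *Peg3*, had 2 and 31 counts in all.

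The pathway around *Igf2* was read in 20 of 21 listed genes, of which 2 rose and none fell in the late comparison, against the 5.09% of all genes that passed as higher. The median of the 20 was -0.03. *Igfbp5*, a binding protein that holds IGFs in the matrix, rose by 0.83 ± 0.22 (adjusted p = 0.023), from 23.7 to 65.4 CPM at 1 to 3 dpi to 42.9 to 205 CPM at 4 to 6 dpi, and the call was lost in 3 of 27 other fits. The 42.9 CPM were those of the 5 dpi library, which had the Y-linked pattern. In the fit of early against late libraries with the *Xist* share, the log2 fold change of *Igfbp5* was 0.39 (adjusted p = 0.74). *Igfbp2* lay at 0 to 0.426 CPM early and 0 to 2.00 CPM late (adjusted p = 0.047), a call that was lost in 17 of 26 other fits. It passed the filter on low counts only through the libraries of 5 dpi (12 counts) and 6 dpi (11 to 31). No early library held more than 5 counts, so its place among the 2 that rose is a description. *Igf2r*, the imprinted receptor that clears IGF2, had a log2 fold change of 0.43 ± 0.17 (adjusted p = 0.14), and *Igf1r*, the signalling receptor, -0.33 ± 0.16 (adjusted p = 0.23). *Igf1*, the ligand related to *Igf2*, fell by 1.12 ± 0.23 from 2 to 3 dpi (adjusted p = 0.013), and its late comparison gave 0.16 ± 0.16 (adjusted p = 0.62).

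Of 13 regulators of the network that were tested, 2 fell and none rose in the late comparison, against 345 of all 14030 genes that passed as lower, with a median of -0.04. *Hmga1*, a chromatin protein of growing cells, fell by 1.86 ± 0.29 (adjusted p = 4.1e-04), from 28.6 to 172 CPM at 1 to 3 dpi to 12.1 to 36.5 CPM at 4 to 6 dpi, and passed in all 27 other fits. *Hmga2*, its relative and a promoter of growth in the embryo, fell by 2.00 ± 0.57 (adjusted p = 0.038), but the call was lost in 9 of 26 other fits, and its levels at 6 dpi were 0.194, 0 and 0 CPM.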

How the data were processed

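Bulk RNA-seq counts (MARS-seq, a 3′ protocol for poly-A RNA) of 17 libraries of sorted CFs at 1 to 6 dpi were analysed, grouped by the day in the labels. The authors used bcl2fastq (1.2.4) for demultiplexing, STAR for alignment to mm10 and featureCounts with Ensembl genes of GRCm38, and the deposited values are the resulting counts, not normalized. Collapsing of duplicates and the strand setting are not given in the sources used here. Totals and the level of 3 counts are given with the results, and this floor covers counting error only.

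A gene was tested if 3 or more libraries held 10 or more of its counts. The test was edgeR's quasi-likelihood F-test (4.0.16, R 4.3.3) with TMM factors. All 17 libraries entered a single fit whose 6 coefficients were the days, and the Benjamini-Hochberg threshold was 0.05. The 5 dpi library entered the mean of 4 to 6 dpi and was not tested alone, and of the replicate numbers given for it, 3 (title) and 1 (description), the title's was used. Correlations and log2 levels used log2 CPM with a prior count of 2. The members and gene lists were chosen with earlier results of these data known. The genes named are the members, the neighbours in their clusters, genes of the lists that passed in the late comparison, *Igf1* and *Igf1r* as further examples chosen after their values were seen, and the 8 genes most like *H19*. *Igf2*, at 0 throughout, could not be ranked for likeness.

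Tested on simulated data of 13680 genes for the late comparison, 51.5% of the genes given a log2 change of 1 and 83.5% of those given 2 were called. Alternatives were DESeq2 (1.42.0), other normalizations and filters, a robust spread, a replicate block, fits without whole days or single libraries, fits of no other days than those compared, a factor of 2 levels with and without the *Xist* share, and other scalings of *H19*. Gene positions follow GENCODE vM21 (GRCm38), which is not the release used for counting. pandas (2.3.3), scipy (1.17.1) and matplotlib (3.10.9) were used.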

Additional observations from a re-analysis of the deposited data

Results flagged for a closer look

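Of 9 members with counts, each examined over the 4 libraries of 3 dpi, 1 had a library far from the others by the ratio of its gap to the range. *Peg3* in replicate 3 of 3 dpi, at 18.3 CPM against 14.0 to 14.5 CPM in the other 3 libraries, had a gap of 0.86 of the range on the log2 scale, above Dixon's critical value for 4 libraries. Chance gives such a value in about 1 of 20 groups, 0.45 for the 9 examined. *H19* in replicate 2 of the same day, at 119.5 CPM, had 0.792, below that value.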

How the results depend on the processing

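The rise of *Mest* passed in every fit run of the late comparison. The number of members called there fell from 2 to 1 with a replicate block and with the *Xist* share (1), lay between 1 and 2 when single libraries of the days with replicates were left out, and was 3 without the 5 dpi library and with DESeq2. Over the time course it lay between 2 and 5 on leaving out libraries, and was 6 with every gene of at least 1 count. From 2 to 3 dpi it lay between 0 and 1, and from 3 to 4 dpi between 1 and 2. In this last step it was 1 when every library had to hold 10 counts and 1 with a replicate block. The difference of *H19* was 4.50 without the 3 dpi libraries, 2.91 without the 1 dpi libraries and between 3.52 and 3.87 without single libraries.

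Directions turned for values near 0. *Dlk1* had -0.006 with 2 levels of day, -0.10 with the *Xist* share and -0.27 to 1.33 without single libraries. *Peg3* had 0.005 without the 5 dpi library. *Cdkn1c* had 0.12 without the 3 dpi libraries, 0.022 without the 5 dpi library and 0.42 with the *Xist* share. *Ndn* had 0.008 with upper-quartile factors, 0.18 without the 3 dpi libraries, 0.42 with the *Xist* share and -0.22 to 0.08 without single libraries of the days with replicates (-0.28 without the 5 dpi library). The cause was not tested.

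Calls over all genes varied more: 1307 to 3757 for the time course (2099 as reported), 155 to 1729 for the late comparison (1059), and for the steps 10 to 153 (25), 46 to 1033 (412), 125 to 866 (380) and 3 to 1402 (72). Pairing of libraries by replicate number was not settled. The mean correlation of deviations was 0.011 over 30 pairs with the same number and -0.005 over 72 with different numbers. The lowest values were -0.108 and -0.259, and a replicate block gave 1494 calls for the time course. The late comparison uses all libraries, so a fit on its days alone was not run. Depth limits *Dlk1* and *Plagl1*.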
